A study of Homo sapiens with 6 samples.

Results

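The genes described here are 10 AP-1 and immediate early factors: JUN, JUNB, JUND, FOS, FOSB, FOSL1, FOSL2, ATF3, EGR1 and IER2. They were chosen by name, with earlier results of these data known, and each symbol matched a single row among the 62696 genes counted. RNA was sequenced from DMS53, a human small cell lung cancer line of the neuroendocrine type, to ask what raised ONECUT2 (OC2) does to the cells. The control libraries came from cells transduced with an empty lentiviral vector and the OC2-OE libraries from cells transduced with the OC2 vector, with 3 libraries in each group. Both vectors carried a green fluorescent protein and puromycin resistance, both groups had been selected with puromycin, and OC2 was made as a fusion with the fluorescent protein. The study describes 3 independent experiments for each condition but does not say whether the cells were transduced anew for each, so the p-values measure the spread between these libraries.

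AP-1 is a dimer of basic leucine zipper proteins. A JUN protein pairs with another JUN protein, with a FOS protein or with an ATF protein, whereas FOS proteins do not form stable dimers among themselves. Immediate early genes are those whose transcription starts within minutes of a growth factor, stress or other stimulus without new protein synthesis, and many of their mRNAs are short lived. In tumours AP-1 is known for its part in invasion, inflammation and changes of cell state, and EGR1 is a zinc finger factor induced by the same mitogen-activated kinases.

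The libraries held between 16533284 and 19099337 assigned read pairs. ONECUT2 itself, counted from the introduced coding sequence together with the endogenous gene, rose from 24.6 ± 0.332 CPM (reads per 1000000 assigned reads; SD, n = 3) in control to 3944 ± 70.3 CPM in OC2-OE, a log2 fold change of 7.32 (SE 0.0281). Every library matched its label by this measure. Libraries of one group resembled each other closely, with a biological coefficient of variation of 2.2%. The comparison was broad: edgeR's quasi-likelihood test called 9776 of 17307 tested genes at a Benjamini-Hochberg adjusted p under 0.001, which is 56.5% of them. Higher calls made up 27.8% of tested genes and lower calls 28.7%, and 17.3% of tested genes were called with at least a 2-fold change. The counts of members below are to be read against these shares. Their balance depended on the scaling. In the main fit 4810 genes were called higher and 4966 lower. Scaled by library size alone, 5337 were higher and 4427 lower, and by the upper quartile 5256 and 4521.

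All 10 members were detected in all 6 libraries and passed the filter on low counts. In OC2-OE, 7 of them rose (FOSB, EGR1, ATF3, FOSL2, FOSL1, JUNB and IER2), 2 fell (JUN and JUND), and FOS did not pass the test. Their median log2 fold change was 0.31, beside 0.01 over all tested genes. FOSB and EGR1 changed by more than 2-fold, and 6 members had a log2 fold change smaller than 0.36 in either direction. In 9 members the control and OC2-OE libraries did not overlap, which was so in 73.2% of all tested genes.

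**Figure D1:**
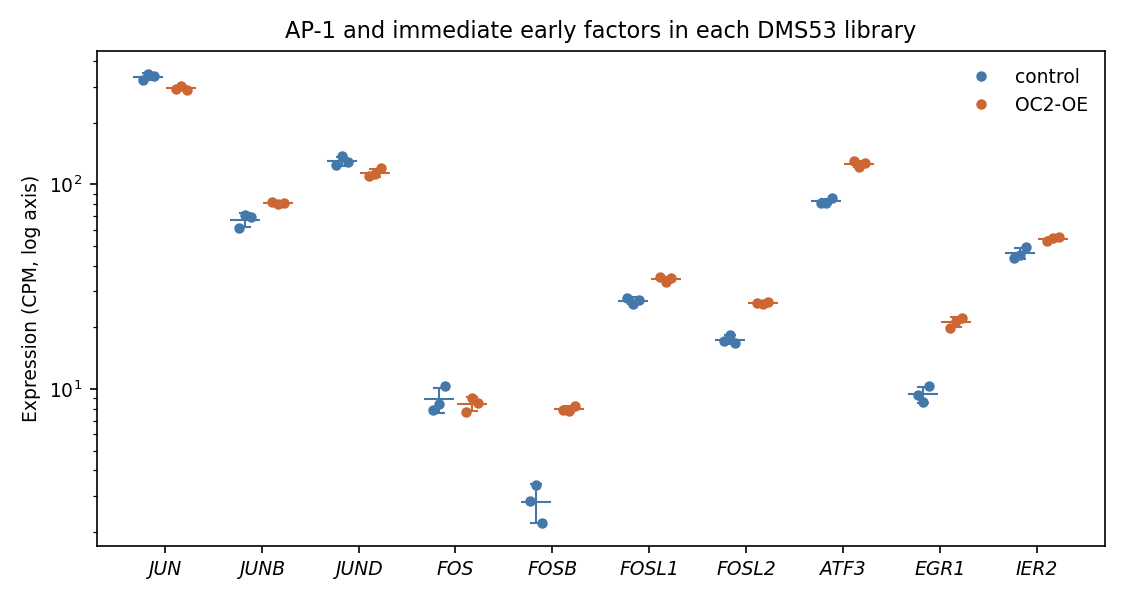
CPM of each member in every library on a log axis, with control in blue and OC2-OE in orange. Points are libraries, the long horizontal bar is the group mean and the error bar is the SD (n = 3). FOSB and EGR1 show the widest gaps between groups, and the FOS libraries of both groups overlap.

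The promoters of the 4 called members with the largest fold changes are shown as the DNA around an annotated start of each gene. Short known binding motifs are in capitals. Gene-level counts do not show which start the cells used. Sequences run 5′ to 3′ on the strand of the gene, from 250 bases before to 50 bases after a RefSeq transcription start in GRCh38.p14, and all 4 genes lie on the plus strand. They are FOSB at chr19:45467746-45468045, EGR1 at chr5:138465229-138465528, ATF3 at chr1:212565157-212565456, which is the upstream of its 2 listed starts, and FOSL2 at chr2:28392608-28392907.
FOSB: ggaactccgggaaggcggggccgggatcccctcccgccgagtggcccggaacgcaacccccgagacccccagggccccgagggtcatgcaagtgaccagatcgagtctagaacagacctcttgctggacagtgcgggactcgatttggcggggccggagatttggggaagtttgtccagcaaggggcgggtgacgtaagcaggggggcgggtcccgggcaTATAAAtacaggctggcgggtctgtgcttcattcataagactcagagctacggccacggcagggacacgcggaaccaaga
EGR1: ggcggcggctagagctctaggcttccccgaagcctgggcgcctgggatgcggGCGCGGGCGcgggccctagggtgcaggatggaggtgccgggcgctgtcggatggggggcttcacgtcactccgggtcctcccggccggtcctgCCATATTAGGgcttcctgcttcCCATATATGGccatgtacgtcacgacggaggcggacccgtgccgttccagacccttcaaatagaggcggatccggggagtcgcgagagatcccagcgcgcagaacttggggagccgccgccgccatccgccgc
ATF3: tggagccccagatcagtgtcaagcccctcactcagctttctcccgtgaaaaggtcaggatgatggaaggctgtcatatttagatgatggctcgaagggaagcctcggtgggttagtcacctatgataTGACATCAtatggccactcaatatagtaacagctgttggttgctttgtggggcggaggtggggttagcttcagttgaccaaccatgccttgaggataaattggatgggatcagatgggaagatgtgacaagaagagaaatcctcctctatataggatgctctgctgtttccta
FOSL2: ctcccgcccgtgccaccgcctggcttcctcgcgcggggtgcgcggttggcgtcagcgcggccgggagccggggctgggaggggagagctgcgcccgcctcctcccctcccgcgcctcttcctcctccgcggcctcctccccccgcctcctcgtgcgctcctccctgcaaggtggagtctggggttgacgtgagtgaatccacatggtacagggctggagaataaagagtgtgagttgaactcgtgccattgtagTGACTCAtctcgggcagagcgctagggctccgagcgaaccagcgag
The capitals mark a TATA box (TATAAA) in FOSB, an EGR motif (GCGNGGGCG) and 2 CArG boxes, the motif bound by serum response factor, in EGR1, a cyclic AMP response element-like motif (TGACNTCA) in ATF3 and an AP-1 motif (TGANTCA) in FOSL2.

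Both strands were searched for these motifs and for ATTGAT and ATCGAT, core letters bound by ONECUT factors, and no matches overlapped. RefSeq promoter entries were matched for 9 of the 10 members, all but FOSL1, and ATF3 had 2, which makes 10 entries. The AP-1 motif stood in 1 of them and in 7.71% of all 35116 promoters of the same length. The cyclic AMP response element-like motif stood in 3 (JUN, JUND and the upstream start of ATF3) and in 7.72% of all, and the TATA box in 4 (FOS, FOSB, JUNB and the downstream start of ATF3) and in 11.5% of all. The 3 entries with the cyclic AMP response element-like motif belong to members that moved in different directions, since JUN and JUND fell and ATF3 rose. The EGR motif was in 1 entry and in 9.43% of all promoters, and the CArG box in 1 entry and in 1.29% of all. Neither ONECUT core was found in these 300-base windows of the members. ATTGAT was in 6.26% and ATCGAT in 0.763% of all promoters, so rare that none among 10 entries is unremarkable. In FOSB the TATA box began 30 bases before the start, and in EGR1 the CArG boxes began 105 and 83 bases before it. The GC content of the windows shown was 64.0% in FOSB, 69.3% in EGR1, 48.0% in ATF3 and 68.7% in FOSL2, beside a median of 58.7% over all promoters. These are letter matches only.

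Among the JUN proteins, JUN and JUND fell slightly and JUNB rose. JUN (ENSG00000177606.8, chromosome 1, 58776845 to 58784048, minus strand) is a strong transcriptional activator and the founding member of the family. Its CPM in control was 322, 347 and 340.2, against 292, 303 and 290.4 in OC2-OE, so that every OC2-OE library lay below every control library. The log2 fold change was −0.19 (SE 0.0253, adjusted p = 8.19e-11 in edgeR's quasi-likelihood test), a level 1.14-fold lower. JUND (ENSG00000130522.6, chromosome 19, 18279694 to 18281622, minus strand), which many cell types express constitutively, had 124, 137 and 128 CPM in control and 109.5, 113 and 120 CPM in OC2-OE. These groups did not overlap either, but the gap between the lowest control and the highest OC2-OE library was small. Its log2 fold change of −0.18 (SE 0.0351, edgeR adjusted p = 2.89e-06) became −0.15 with an edgeR adjusted p of 0.00102 when OC2-OE replicate 1 was left out, just short of the threshold.

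JUNB (ENSG00000171223.6, chromosome 19, 12791486 to 12793315, plus strand) is a weaker activator that can restrain JUN in dimers. Control libraries had 61.0, 70.8 and 69.4 CPM and OC2-OE libraries 81.7, 79.9 and 81.1 CPM. The OC2-OE libraries lay close together and above all controls, of which replicate 1 was the lowest. The log2 fold change was 0.27 (SE 0.0425, edgeR adjusted p = 1.02e-08), a 1.21-fold higher level. JUNB shares 259 bases of exon, 14.2% of its exon length, with HOOK2 on the opposite strand, and the counting used strand.

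Among the FOS proteins, FOSB, FOSL2 and FOSL1 rose and FOS did not pass the test. FOSB (ENSG00000125740.14, chromosome 19, 45467995 to 45475179, plus strand) encodes an activator and a short splice form that lacks part of the activation domain, which gene-level counts do not separate. It had few reads, with 53, 57 and 36 counts in control, against 151, 136 and 151 in OC2-OE. In CPM these were 2.84, 3.41 and 2.21 against 7.88, 7.85 and 8.29, so the lowest OC2-OE library lay far above the highest control library. The log2 fold change was 1.5 (95% interval 1.21 to 1.79, edgeR adjusted p = 3.61e-17), 2.83-fold, and 4.37% of tested genes had a higher value. Its interval was the widest of the 10 members.

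FOSL2 (ENSG00000075426.12, chromosome 2, 28392448 to 28417317, plus strand), known as FRA2, had 17.1, 18.4 and 16.8 CPM in control and 26.2, 26.1 and 26.6 CPM in OC2-OE. The 3 OC2-OE libraries were nearly equal and all above control, with a log2 fold change of 0.59 (SE 0.0704, edgeR adjusted p = 4.34e-13), or 1.51-fold. FOSL1 (ENSG00000175592.9, chromosome 11, 65892049 to 65900573, minus strand), known as FRA1 and linked to mesenchymal and invasive states in carcinoma, had 28.0, 25.9 and 27.1 CPM in control and 35.2, 33.5 and 34.8 CPM in OC2-OE. Its groups were also apart, and the log2 fold change was 0.35 (SE 0.0599, edgeR adjusted p = 1.05e-07), or 1.28-fold.

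FOS (ENSG00000170345.10, chromosome 14, 75278826 to 75282230, plus strand), the classical rapidly induced partner of JUN, had 7.92, 8.49 and 10.3 CPM in control and 7.72, 9.06 and 8.56 CPM in OC2-OE. The groups overlapped, and control replicate 3 was the highest of all 6 libraries. The log2 fold change was −0.07 with a 95% interval from −0.29 to 0.15 (edgeR adjusted p = 0.578), and without control replicate 3 it was 0.04. That interval holds the estimates of JUN and JUND and none of those of the 7 members that rose, and the difference between members was not tested.

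ATF3, EGR1 and IER2 all rose. ATF3 (ENSG00000162772.17, chromosome 1, 212565334 to 212620777, plus strand) is a stress-induced zipper protein that pairs with JUN proteins and often acts as a repressor. It had 81.2, 81.3 and 85.4 CPM in control and 130.4, 122 and 127 CPM in OC2-OE, with all OC2-OE libraries well above control. The log2 fold change was 0.61 (SE 0.0362, edgeR adjusted p = 3.86e-32), 1.53-fold, and the SE was the smallest among the members that rose.

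EGR1 (ENSG00000120738.8, chromosome 5, 138465479 to 138469303, plus strand) had 175, 144 and 167 counts in control and 382, 371 and 406 in OC2-OE. As CPM these were 9.37, 8.61 and 10.3 against 19.9, 21.4 and 22.3, and the groups were far apart. The log2 fold change was 1.17 (95% interval 1.00 to 1.34, edgeR adjusted p = 1.14e-24), or 2.25-fold, and 6.87% of tested genes had a higher value. IER2 (ENSG00000160888.7, chromosome 19, 13150411 to 13154911, plus strand), a serum-induced nuclear protein that is no zipper protein, had 43.8, 45.2 and 49.3 CPM in control and 53, 54.7 and 55.4 CPM in OC2-OE. The gap between its groups was small, with a log2 fold change of 0.24 (SE 0.049, edgeR adjusted p = 6.7e-06). IER2 shares exon bases with 2 unnamed genes on the opposite strand.

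**Figure D2:**
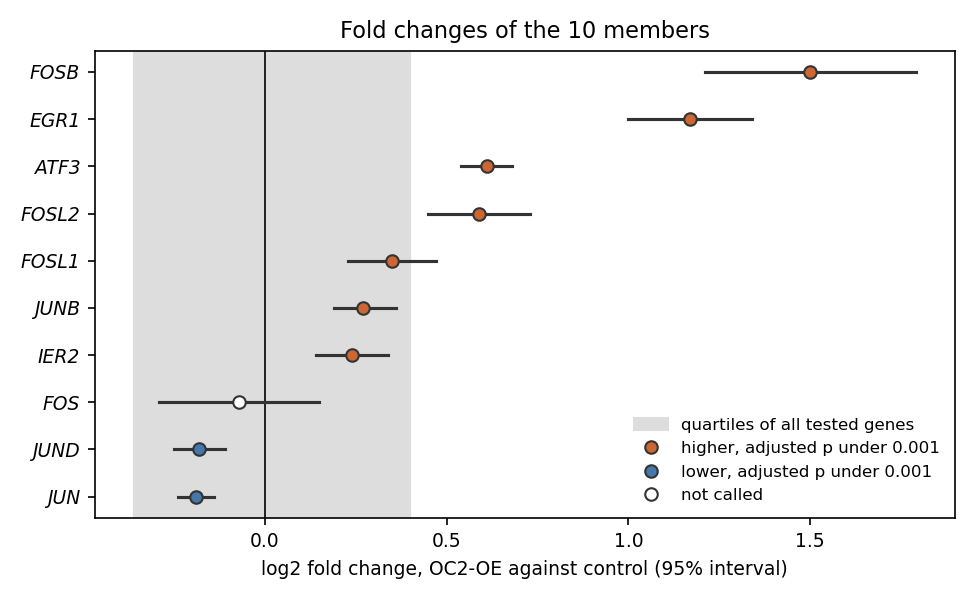
Log2 fold change of each member, OC2-OE against control, with its 95% interval; orange points are higher calls, blue points lower calls and the white point is not called. The grey band spans the quartiles of all tested genes, from −0.36 to 0.40, and FOSB, EGR1, ATF3 and FOSL2 have their estimate beyond it.

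To compare the members with each other, counts were divided by exon length and scaled within each library to TPM, the length-corrected share of transcripts. In control cells JUN mRNA was highest at 378 ± 14.5 TPM (SD, n = 3), followed by JUND at 274 ± 13.6, JUNB at 149 ± 11.8 and ATF3 at 83.5 ± 2.73 TPM. IER2 (61.0 ± 4.0 TPM) and FOSL1 (58.4 ± 2.44 TPM) came next and their libraries overlapped. EGR1 (12.2 ± 1.14), FOS (11.4 ± 1.62) and FOSL2 (9.93 ± 0.436 TPM) followed, with FOS overlapping both of the others, and FOSB was lowest at 2.07 ± 0.428 TPM.

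In OC2-OE the first 4 places of this order were the same, with JUN at 341 ± 8.18, JUND at 248 ± 11.5, JUNB at 185 ± 2.04 and ATF3 at 131 ± 4.52 TPM. Below them FOSL1 (76.7 ± 1.94) and IER2 (74.0 ± 1.64 TPM) overlapped again. EGR1 stood at 28.4 ± 1.59, FOSL2 at 15.4 ± 0.138, FOS at 11.1 ± 0.892 and FOSB at 6.05 ± 0.183 TPM, each apart from the next. FOSL2 thus ranked above FOS in OC2-OE, whereas the libraries of these genes overlapped in control.

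The JUN family kept an overlapping summed level in both groups while its make-up moved. The summed TPM of JUN, JUNB and JUND was 759.7, 835 and 812 in control and 763, 779.8 and 782 in OC2-OE. JUN made up 47.2 ± 0.554% of the family in control and 44.1 ± 1.04% in OC2-OE, JUND 34.2 ± 0.637% and 32.0 ± 1.14%, and JUNB 18.6 ± 0.662% and 23.9 ± 0.546%. No share overlapped between the groups, but for JUND the gap was narrow, with 33.4% in control replicate 3 and 33.3% in OC2-OE replicate 3. The shares are parts of the same sum, so they do not move separately.

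The FOS family sum was higher in OC2-OE, with 82.6, 79.5 and 83.4 TPM in control and 109.8, 108 and 110.4 TPM in OC2-OE. FOSL1 was most of it in both groups, 71.4 ± 1.76% and 70.2 ± 1.05%. The share of FOSB was 2.54 ± 0.586% in control and 5.53 ± 0.126% in OC2-OE, that of FOSL2 12.2 ± 0.843% and 14.1 ± 0.0939%, and that of FOS 13.9 ± 1.8% and 10.2 ± 0.909%. JUN family mRNA exceeded FOS family mRNA by 9.81 ± 0.648 times in control and 7.09 ± 0.145 times in OC2-OE, with no overlap between groups. The 7 JUN and FOS genes together summed to 884 ± 37.2 TPM in control and 884 ± 10.4 TPM in OC2-OE. These sums and shares are descriptions of mRNA without a test, and the files hold no protein or dimer levels.

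**Figure D3:**
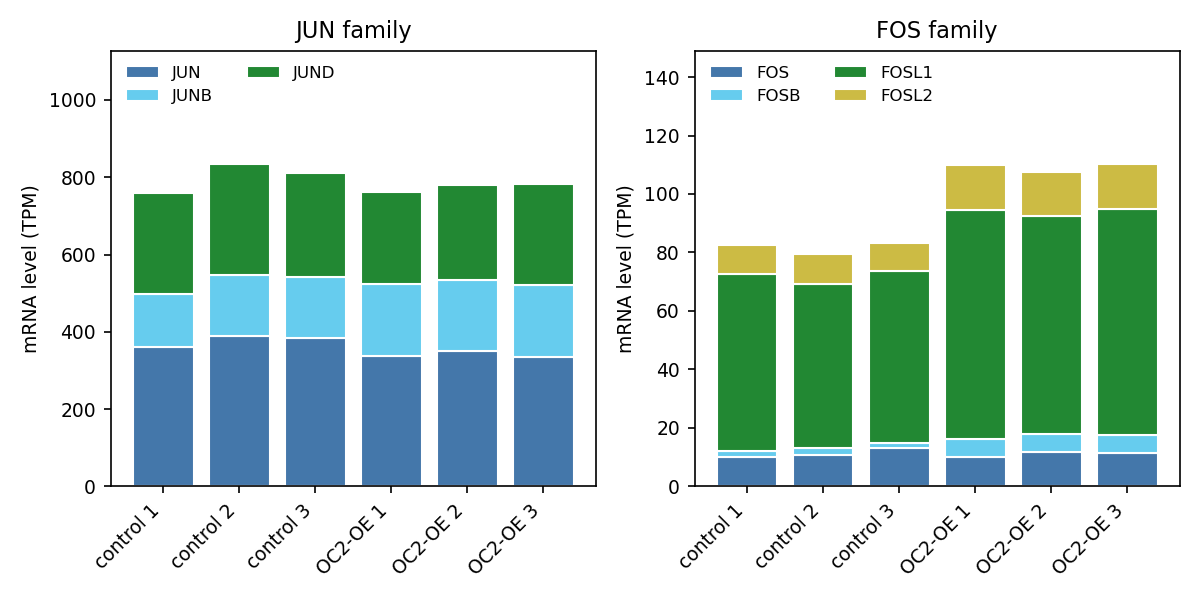
Stacked TPM of the JUN family (left) and the FOS family (right) in each library, on different linear axes that start at 0. The JUN family bars overlap in height between groups, whereas the FOS family bars lie between 79.5 and 83.4 TPM in control and between 108 and 110.4 TPM in OC2-OE.

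The members were set beside 8 lists of related genes, to be read against the shares called among all tested genes and their median log2 fold change of 0.01. The lists, like the members, were chosen with earlier results of these data known. Other zipper proteins that can pair with AP-1 subunits came first. Of 13 listed, 11 were tested, 6 rose, 2 fell and 3 were not called, with a median log2 fold change of 0.47. BATF3, a small JUN partner best known in dendritic cells, rose from 3.30 ± 0.554 to 22.0 ± 2.66 CPM (log2 fold change 2.72). MAF, a large MAF protein, rose from 1.95 ± 0.0912 to 12.4 ± 0.814 CPM (2.66), and CREB5, a relative of ATF2, from 15 ± 1.42 to 66.3 ± 3.19 CPM (2.15). The 2 that fell were JDP2 (−0.77), a repressor that pairs with JUN, and ATF2 (−0.15). Genes named here and below because few on a list moved their way, such as these, were chosen after their values were seen.

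The immediate early genes outside the 10 members did not move one way. Of 27 listed, 22 were tested, 8 rose, 8 fell and 6 were not called, with a median log2 fold change of −0.04. IER3, a regulator of apoptosis also induced by NF-kB, rose most, from 22.5 ± 0.708 to 586 ± 2.38 CPM (log2 fold change 4.71). SGK1, a kinase induced by serum and glucocorticoid, rose from 1.87 ± 0.286 to 6.03 ± 0.215 CPM (1.68), and IER5L fell from 7.62 ± 0.707 to 2.81 ± 0.752 CPM (−1.43). Both lists thus held genes with far larger changes than any member.

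Kinases and cofactors upstream of these genes were also mixed. All 22 were tested, 7 rose, 8 fell and 7 were not called, with a median log2 fold change of 0.00. MAP2K6, a kinase that activates p38, rose from 79.6 ± 4.68 to 686 ± 9.21 CPM (log2 fold change 3.10), and ELK3, a partner of serum response factor, from 10.1 ± 0.242 to 22.6 ± 1.55 CPM (1.17). MRTFB, a coactivator of serum response factor, fell from 251 ± 9.28 to 99.6 ± 1.55 CPM (−1.33). NAB1 and NAB2, corepressors that bind EGR proteins, rose with log2 fold changes of 0.80 and 0.67, and were likewise chosen after their values were seen.

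Feedback genes of the ERK kinases, the pathway that also induces EGR1 and FOS, were called about as often as tested genes in general, 55.6% against 56.5%. Of 9 tested, 1 rose, 4 fell and 4 were not called, with a median log2 fold change of −0.26. The inhibitor SPRY1 fell from 18 ± 1.69 to 6.08 ± 0.893 CPM (log2 fold change −1.57), the ERK phosphatase DUSP6 from 64.0 ± 1.02 to 27.7 ± 0.755 CPM (−1.21) and the ETS factor ETV4 from 76.3 ± 4.59 to 47.4 ± 3.47 CPM (−0.69). SPRED2 (0.27) was the 1 that rose.

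Genes widely used as AP-1 targets mostly rose. Of 24 listed, 19 were tested, 12 rose, 1 fell and 6 were not called, with a median log2 fold change of 1.34. MMP1, CD44, MMP10 and VIM, among those that rose, had 3, 7, 26 and 33 counts in all control libraries together. They passed the filter on low counts through their OC2-OE level, so the number of risers and the median rest partly on that filter. With at least 10 counts asked for in every library, 9 genes of this list were called, against 13 in the main fit. Among the members, FOSB alone lay above this median. CXCL8, a neutrophil chemokine, rose from 49.0 ± 0.672 to 1295 ± 15.9 CPM (log2 fold change 4.72). MMP1, a collagenase, had 3 counts in all control libraries together and 208 in OC2-OE, a ratio of 65.5 after scaling for library size (95% counting interval 22.1 to 320.2). CD44, a hyaluronan receptor, had 7 counts in control and 120 in OC2-OE (3.94), a low level in both groups. CCND1, a G1 cyclin, was the 1 that fell, from 66.2 to 27.9 CPM on average (−1.24). Many of these genes also answer to other factors, NF-kB among them, and the files hold no measure of AP-1 binding.

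Genes of the integrated stress response, the pathway through ATF4 that also induces ATF3, rose in most cases. Of 11 tested, 9 rose and 2, ATF4 itself and PSAT1, were not called, with a median log2 fold change of 0.85. CEBPB, a zipper protein, rose from 24.9 ± 3.29 to 72.4 ± 4.54 CPM (log2 fold change 1.54), the stress factor DDIT3 from 55.4 ± 2.92 to 142 ± 8.86 CPM (1.36) and the pseudokinase TRIB3 from 100.0 ± 4.59 to 247 ± 0.432 CPM (1.31). Heat shock genes went the other way in most cases, and of 10 tested 7 fell, 2 rose and 1 was not called, with a median log2 fold change of −0.30. The chaperone genes DNAJB1 (145 ± 3.2 to 82.1 ± 0.192 CPM, −0.82), HSPH1 (440.0 ± 6.38 to 263 ± 4.28 CPM, −0.74) and HSPE1 (101 ± 1.48 to 66 ± 4.0 CPM, −0.62) fell most. The 2 that rose, HSPA1A (0.20) and HSPA1B (0.29), are near-identical copies whose counts are uncertain.

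Factors that degrade or protect mRNAs with AU-rich elements, a class to which the FOS mRNA belongs, mostly fell by small amounts. Of 8 tested, 1 rose, 5 fell and 2 were not called, with a median log2 fold change of −0.17. ZFP36, itself an immediate early gene that promotes decay, was the 1 that rose, from 22.4 ± 1.83 to 72.7 ± 1.63 CPM (log2 fold change 1.69). ELAVL1, which stabilises such mRNAs, fell from 182 ± 10.3 to 138 ± 2.25 CPM (−0.40) and CNOT1, the scaffold of a deadenylase complex, from 271 ± 12.2 to 224 ± 3.7 CPM (−0.28). The part of any of these lists in the members' levels was not tested.

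**Figure D4:**
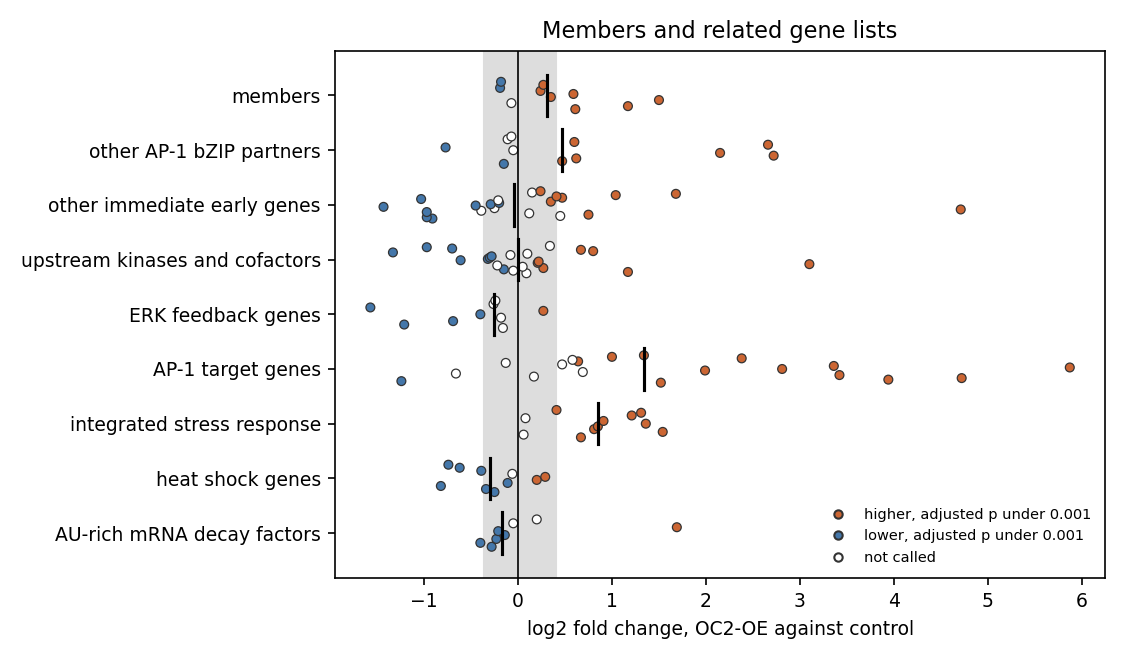
Log2 fold change, OC2-OE against control, of every tested member and every tested gene on the 8 lists of related genes. Points are genes, orange for higher and blue for lower calls and white for genes not called, black bars are list medians and the grey band spans the quartiles of all tested genes. Of the lists drawn, the AP-1 targets and the integrated stress response have the highest medians, 1.34 and 0.85.

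Neuroendocrine markers were present in all libraries, as the label of the line asks, and moved with the groups. Of 10, 3 rose, 6 fell and 1 was not called. DDC (log2 fold change −2.52), NCAM1 (−2.00) and INSM1 (−1.93) fell most, and the 3 that rose were SCG2 (1.5, from 801 to 2273 CPM on average), CHGA (1.06, from 72.2 to 150.1 CPM) and SYT1 (0.23). The summed level of the 10 was 2719.9 to 2738 CPM in control and 3397 to 3440.4 CPM in OC2-OE, and this rise rests on SCG2: without it the other 9 summed to between 1917 and 1942 CPM in control and between 1131 and 1155 CPM in OC2-OE. In bulk RNA, fewer cells with a transcript and less of it per cell cannot be told apart, for these genes as for the members. Fibroblast markers, of which COL1A1 was nearly all, summed to between 22.5 and 25.4 CPM in control and between 28.5 and 32.4 CPM in OC2-OE. Of 7, 4 were tested, with PDGFRB (log2 fold change 2.48) and COL1A1 (0.37) higher, PDGFRA (−2.34) lower and COL1A2 not called. Leukocyte markers summed to between 3.85 and 4.42 CPM in control and between 7.44 and 9.11 CPM in OC2-OE. Of 6, 2 were tested and both were higher, CD14 (0.71) and LYZ (2.44), while CD3E was at 0 in all libraries. Endothelial markers summed to between 13.4 and 15.2 CPM in control and between 4.28 and 4.96 CPM in OC2-OE. Of 5, 3 were tested, KDR (−2.77) and CDH5 were lower and PECAM1 was not called, and CDH5 had 52 counts in control and 3 in OC2-OE, a ratio of 18.3 higher in control (95% counting interval 5.94 to 91.9). The part of these markers in the members' values was not tested.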

How the data were processed

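Poly(A) RNA from 6 DMS53 samples was sequenced from strand-specific libraries. The deposited values are raw read-pair counts per gene: per the labels and file headers, the authors checked reads with FastQC 0.11.8, aligned them with STAR 2.7.9a to GRCh38 and counted exons by gene with featureCounts 1.6.0 (GENCODE 42, reverse-stranded). Gene lengths are the exon lengths deposited beside the counts. Groups came from the sample labels, and replicate numbers from the titles. The members and gene lists were chosen with earlier results of these data known. Low genes were removed with filterByExpr, counts were scaled by TMM, and OC2-OE was compared with control in edgeR 4.0.16 (R 4.3.3) with the robust quasi-likelihood test, without a replicate block. P-values were adjusted by Benjamini-Hochberg over all 17307 tested genes, and a gene was called at an adjusted p under 0.001. The SE is the absolute log2 fold change over the root of F, and intervals are normal at 95%. CPM used TMM-scaled library sizes and TPM the deposited lengths. Ratios for genes with 3 counts have exact binomial intervals, which cover counting error only. All members are given, and on each other list the 3 called genes with the largest change. The few other genes named on a list were chosen after their values were seen. Promoters were read from RefSeq windows and motifs matched by letters. Alternatives were other scalings (DESeq2 1.42.0 size factors, library size, upper quartile), the DESeq2 Wald test, limma 3.58.1 voom, other filters and thresholds, ONECUT2 left out, a replicate block and each library left out. The test was tried on simulated data.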

Additional observations from a re-analysis of the deposited data

How the results depend on the processing

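Of 150 member values over 15 alternatives, 148 kept their direction and their side of the threshold. JUND had a log2 fold change of −0.15 with an edgeR adjusted p of 0.00102 without OC2-OE replicate 1, and leaving out each library in turn gave −0.22 to −0.14. FOS, not called in any of these alternatives, had 0.04 (edgeR adjusted p = 0.796) without control replicate 3, with a leave-out range of −0.15 to 0.04. The cause was not tested. Over all alternatives the log2 fold changes of FOSB lay between 1.36 and 1.65, those of EGR1 between 1.11 and 1.23, those of ATF3 between 0.60 and 0.66 and those of FOSL2 between 0.57 and 0.64. Asking for a log2 fold change of 1 or more in either direction left 2999 genes and 2 members called. Whether the replicate numbers pair the samples was not settled. Deviations of same-numbered control and OC2-OE libraries correlated at −0.000786, 0.0181 and 0.013, and those of differently numbered libraries at −0.0165 to 0.00327. Counting error weakens such correlations, so values this small cannot decide it. A replicate block gave 9642 calls, 9 of them members. Scaling by library size alone moved the median of all genes by 0.05 on the log2 scale and changed no member's call. It gave JUN −0.14 and JUND −0.13 (edgeR adjusted p = 0.000684 for JUND), where the main fit gave −0.19 and −0.18. The fibroblast, leukocyte and endothelial lists each had 1 call where at least 10 counts in every library were asked for. Under that filter the AP-1 targets had 9 calls, against 13 in the main fit. Depth limits FOSB, FOS and EGR1 most, with 36 to 175 counts in each control library.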
